A study of Mus musculus with 8 samples.

Results

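The interferon-induced antiviral genes described here are 36 mouse genes, among them the gene of interferon beta itself, sensors of foreign nucleic acid, and the effectors that block viruses and intracellular bacteria. They were followed in maps of accessible chromatin from macrophages with and without the transcription factor NFAT5. ATAC-seq, in which a transposase inserts sequencing adapters into open DNA, was run on macrophages grown from mouse bone marrow for 7 days in 25% medium conditioned by L929 fibroblasts, which secrete the macrophage growth factor M-CSF. The 4 groups, each with 2 libraries that the design text calls biological replicates, were Nfat5 KO with lipopolysaccharide (LPS, from E. coli, 0.3 ng/ml for 2 h), Nfat5 KO untreated, wild type (WT) with LPS and WT untreated. The strain, age and number of mice, the part of Nfat5 that is missing and any Cre driver were not given in the sources used here. Peaks of the 8 deposited lists were merged wherever they shared at least 1 base, and a merged region belonged to a member gene when that gene's body was the nearest protein-coding one within 100 kb. This gave 164 member regions among 87260 regions in all, at 34 of the 36 genes. Of these, 52 lay within 1 kb of an end of the gene and 112 lay farther away. Mx1 and Mx2, which encode antiviral GTPases, had no region by this rule, because the gene table does not list them as protein-coding.

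Type I interferons are secreted when a cell detects microbial products, and they act through a receptor on the same and neighbouring cells. In macrophages LPS engages TLR4, whose signals switch on interferon beta through the factors IRF3 and NF-kB. The promoters of many interferon-induced genes hold a short sequence through which interferon acts, the interferon-stimulated response element (ISRE). NFAT5 is best known for the response to high salt and also takes part in macrophage responses to LPS.

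The promoters printed here belong to members at which a region near a gene end appeared or vanished with LPS, and to Ddx58, which was added after its values were seen. At Rsad2, Ifit1 and Irgm1 that region lay near the 3′ end, and the region over the printed promoter was called in every library. Each line gives the 250 bases before the annotated start, 5′ to 3′ on the gene's strand, from RefSeq on GRCm38.p6. Capitals mark matches, on either strand, to any of 6 motifs: ISRE (GAAANNGAA), GAS (TTCNNNGAA), AP-1 (TGANTCA), PU.1 (GAGGAAGT), the NFAT core (TGGAAA) and NF-kB.
Ifnb1: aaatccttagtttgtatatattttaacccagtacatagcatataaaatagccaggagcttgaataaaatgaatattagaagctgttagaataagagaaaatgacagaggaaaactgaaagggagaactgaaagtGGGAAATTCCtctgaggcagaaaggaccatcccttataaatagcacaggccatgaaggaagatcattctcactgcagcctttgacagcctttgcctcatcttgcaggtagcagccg
Isg15: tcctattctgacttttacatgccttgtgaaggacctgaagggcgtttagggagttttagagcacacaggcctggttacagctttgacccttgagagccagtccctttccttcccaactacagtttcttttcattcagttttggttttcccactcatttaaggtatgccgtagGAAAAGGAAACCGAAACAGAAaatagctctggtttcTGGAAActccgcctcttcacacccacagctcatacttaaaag
Ddx58: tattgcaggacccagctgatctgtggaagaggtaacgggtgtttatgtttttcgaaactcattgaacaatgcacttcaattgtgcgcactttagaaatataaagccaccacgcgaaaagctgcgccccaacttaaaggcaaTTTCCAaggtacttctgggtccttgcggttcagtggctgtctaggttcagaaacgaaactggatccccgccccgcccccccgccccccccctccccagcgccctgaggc
Rsad2: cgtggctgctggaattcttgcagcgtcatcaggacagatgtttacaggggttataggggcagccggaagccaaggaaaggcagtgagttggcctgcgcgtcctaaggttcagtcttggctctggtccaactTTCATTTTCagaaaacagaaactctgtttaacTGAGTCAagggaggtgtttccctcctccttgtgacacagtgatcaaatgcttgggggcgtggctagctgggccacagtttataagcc
Ifit1: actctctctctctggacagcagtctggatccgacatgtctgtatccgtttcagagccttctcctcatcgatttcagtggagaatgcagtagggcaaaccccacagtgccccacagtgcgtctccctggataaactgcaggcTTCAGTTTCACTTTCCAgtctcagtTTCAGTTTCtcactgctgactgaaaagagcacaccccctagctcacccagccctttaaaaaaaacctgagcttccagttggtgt
Irgm1: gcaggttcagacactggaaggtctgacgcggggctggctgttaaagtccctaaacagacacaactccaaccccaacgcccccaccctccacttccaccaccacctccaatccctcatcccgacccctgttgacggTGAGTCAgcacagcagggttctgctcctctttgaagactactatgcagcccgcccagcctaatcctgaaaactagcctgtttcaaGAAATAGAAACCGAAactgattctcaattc

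The Ifnb1 window (chr4:88522795-88523044, minus strand) held 1 NF-kB match and no match to the other 5 motifs. Isg15 (chr4:156200819-156201068, minus strand) held 3 ISRE matches that overlap each other, 78 to 58 bases before the start, and 1 NFAT core. Ddx58 (chr4:40239826-40240075, minus strand) held 1 NFAT core match on the other strand. Rsad2 (chr12:26456453-26456702, minus strand) held 1 ISRE and 1 AP-1 match, the second of which reads as the motif on both strands. Ifit1 (chr19:34640639-34640888, plus strand) held 3 ISRE matches, of which 2 overlap each other and 1 of these overlaps an NFAT core. Irgm1 (chr11:48871421-48871670, minus strand) held 2 overlapping ISRE matches and 1 AP-1 match. Of the 36 members, 28 had a window in the RefSeq table, and 15 of the 28 had an ISRE match. Counted by window, 44.1% of 34 member windows held an ISRE, against 7.13% of all 32851 windows. The other motifs stood in 23.5% of member windows against 7.02% of all for GAS, 11.8% against 3.9% for NF-kB, 20.6% against 6.75% for AP-1, 2.94% against 2.44% for PU.1 and 32.4% against 18.6% for the NFAT core. A match describes the letters only.

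The deposited lists give the position of each peak and no height, count or p-value, so the depth of the libraries is unknown and a region without a peak may still have been open. The measure of a region in a library was therefore the number of its bases that called peaks cover, with 0 for no peak. In a bulk library, a region open in fewer cells and a region less open in each cell cannot be told apart. The lists held between 54027 and 60117 peaks. WT LPS library 1 stood apart for the members: it called 137 member regions, of which 12 were called in no other library, while the other WT LPS library called 117. The KO LPS libraries called 111 and 107, the untreated KO libraries 102 and 105, and the untreated WT libraries 104 and 101, each with 1 to 3 member regions of its own. Results that rest on WT LPS library 1 are given with and without it. Of 7 macrophage marker genes, 6 had a region near a gene end in all 8 libraries, against 1 of 4 for B cells, 1 of 4 for T cells, 1 of 5 for neutrophils, 0 of 4 for fibroblasts and 1 of 4 for dendritic cells. The targeted gene, Nfat5, was nearest to 7 regions, of which 5 and 5 were called in KO with LPS, 5 and 6 in untreated KO, and 4 in each WT library. Peak lists cannot show a deletion whose position is not given, so this does not check the genotype labels.

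Most members had a peak at their start in every library. For the 28 members with a known strand, a called region overlapped the promoter window (250 bases before to 50 after the start) at 27 (96.4%), against 54.5% of the 17492 protein-coding genes with such a window. At 23 of the 28 (82.1%) a region over it was called in all 8 libraries, against 47.9% of those genes. The 4 whose promoter region was missing from some library were Ifnb1, Isg15, Ddx58 and Oas3, and Oasl2 had none over its window. In all, 72 of the 164 member regions (43.9%) were called in all 8 libraries, against 41.3% of all regions. A single library called 28 member regions (17.1%), against 20.1% of all regions.

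**Figure D1:**
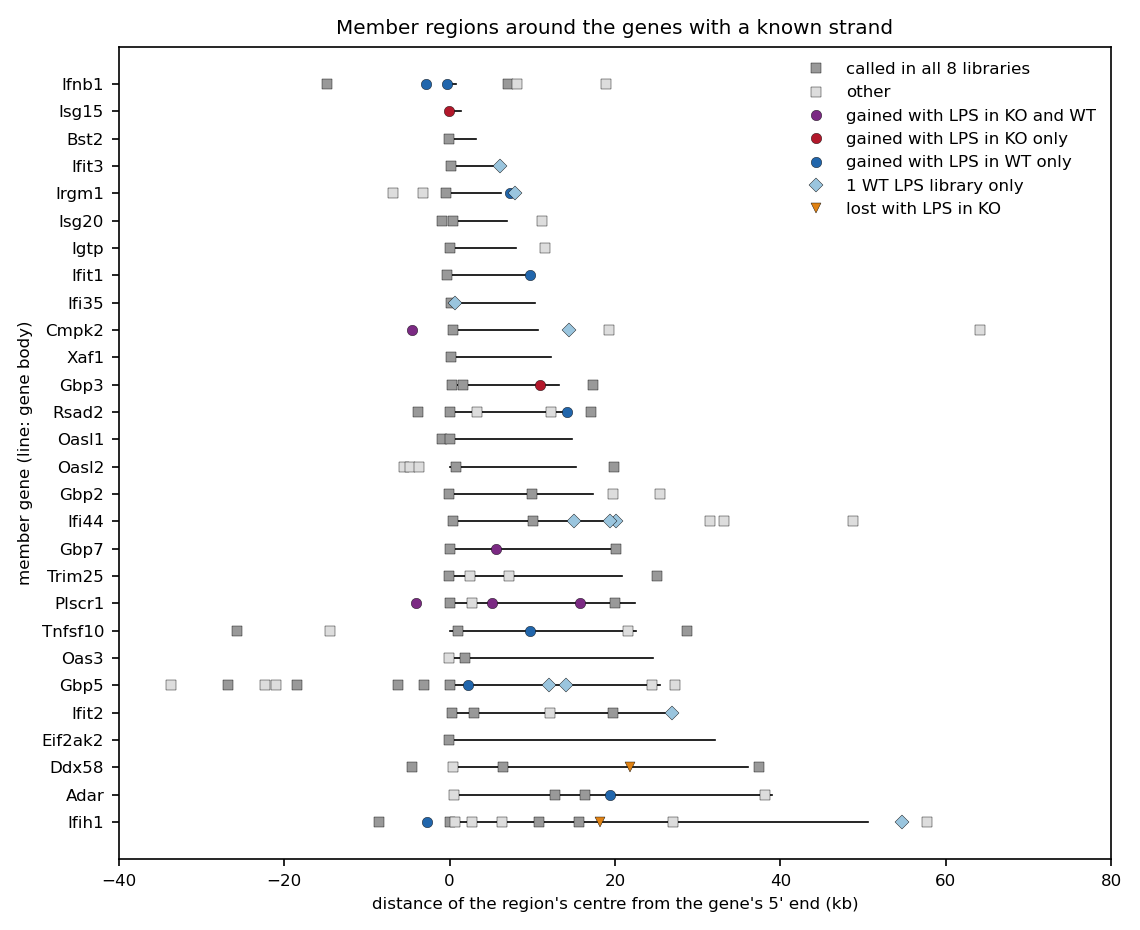
Map of the member regions around the 28 genes with a known strand, with the distance of each region's centre from the gene's 5′ end on the x axis (kb) and 1 gene per row, the line being the gene body. Most starts carry a region called in all 8 libraries, and the regions gained with LPS in WT only include the 3′ ends of Rsad2, Ifit1 and Irgm1.

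In WT macrophages LPS added member regions and removed none. Within a genotype, a region counted as gained if its 2 LPS libraries each held a peak there and its 2 untreated libraries held none, and as lost in the reverse case. By calls, 20 member regions (12.2%) at 14 genes were gained in WT, against 3.96% of all regions. None was lost in WT, against 5.06% of all regions. In KO macrophages 8 member regions (4.88%) at Cmpk2, Gbp3, Gbp7, Isg15, Plscr1 and Usp18 were gained, against 2.56% of all regions. Another 3 (1.83%), at Ddx58, Ifih1 and Il15, were lost in KO, against 4.07% of all regions. With every list cut to its widest 54027 peaks, so that all had equal length, 14 of 160 member regions were gained in KO (8.75%, against 3.34% of all) and 21 in WT (13.1%, against 4.61%), and 1 was lost in KO (0.625%, against 3.09%). With only the widest 27013 peaks of each list, 3 of 88 member regions were gained in KO (3.41%, against 3.74% of all) and 11 in WT (12.5%, against 4.61%). With at least 50% of a region covered for a call, 11 member regions were lost in KO (6.71%, against 5.84%) and 5 in WT (3.05%, against 7.24%). With the widest peaks only, 4 of the 88 were also lost in KO (4.55%, against 3.28%), so both KO shares lay on the other side of the share of all regions there, as did the lost KO share with 50% covered. The WT shares stayed on the same side under these settings. Comparing 2 libraries with 2 cannot give a p below 0.33, so these counts carry no p, and the difference in counts between the genotypes was not tested.

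In WT, gained regions made up a larger share of the members than of all regions, near gene ends and away from them. Away from gene ends, lost regions made up a smaller one. Near gene ends, 1 member region was gained in KO and none was lost in either genotype. These are too few to tell from the shares of all such regions. Near gene ends, 1 of 52 member regions was gained in KO (1.92%, against 0.955% of all such regions) and none was lost (against 2.36%). In WT, 4 of the 52 were gained (7.69%, against 1.37%) and none was lost (against 2.17%). Away from gene ends, 7 of 112 were gained in KO (6.25%, against 2.86%) and 3 were lost (2.68%, against 4.39%). In WT, 16 of the 112 were gained (14.3%, against 4.44%) and none was lost (against 5.6%).

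The WT share stayed above that of all regions when any of the 4 WT libraries was left out, with the rule applied to the remaining 3. Without WT LPS library 1, 24 member regions were gained in WT (14.6%, against 7.04% of all regions) and 6 were lost (3.66%, against 8.21%). Without WT LPS library 2, 36 were gained (22.0%, against 8.61%) and 2 were lost (1.22%, against 7.65%). Leaving out untreated WT library 1 or 2 gave 24 gained in each case (14.6%, against 5.6% and 5.99%). For KO, leaving out LPS library 1 gave 14 gained (8.54%, against 6.09%), and leaving out LPS library 2 gave 16 (9.76%, against 6.98%). Without untreated KO library 1 the count was 8 (4.88%, against 3.81%), and without untreated KO library 2 it was 16 (9.76%, against 4.25%).

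**Figure D2:**
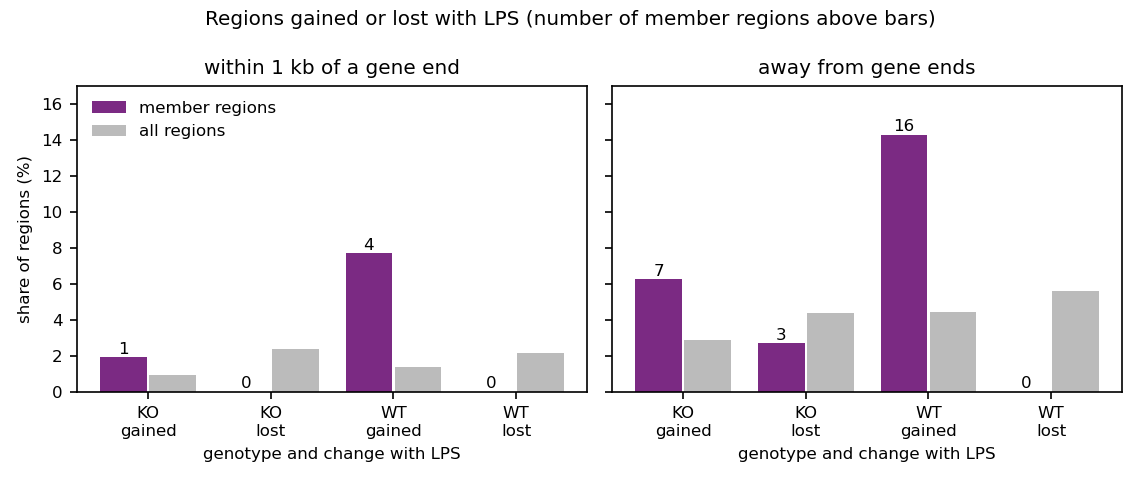
Share of regions gained or lost with LPS (y axis, %) in KO and WT, for member regions (purple, number above each bar) and all regions (grey), near gene ends (left) and away from them (right). Gained members reach 14.3% away from gene ends in WT, where all regions reach 4.44%, and no member region is lost in WT.

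The responses of the genotypes overlapped in part. Of the 8 regions gained in KO, 6 were also gained in WT (75.0% of the KO regions and 30.0% of the 20 WT regions). Over all regions the shares were 42.9% of those gained in KO and 27.8% of those gained in WT. With lists of equal length, 6 of 14 KO regions were shared (42.9%, against 41.4% of all), and without untreated KO library 2, 8 of 16 (50%, against 29.7%), so the KO share was near that of all regions with lists of equal length. These 6 were gained in both genotypes (3.66%, against 1.1% of all regions) and lay at Cmpk2, Gbp7, Usp18 and Plscr1. No member region was lost in both genotypes, against 0.928% of all. Of the 20 WT regions, 5 had no peak in any KO library, 7 had a peak in 1 KO LPS library only, and 2 had a peak in an untreated KO library. The same split was not made for all regions gained in WT, so it does not set the members apart.

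**Figure D3:**
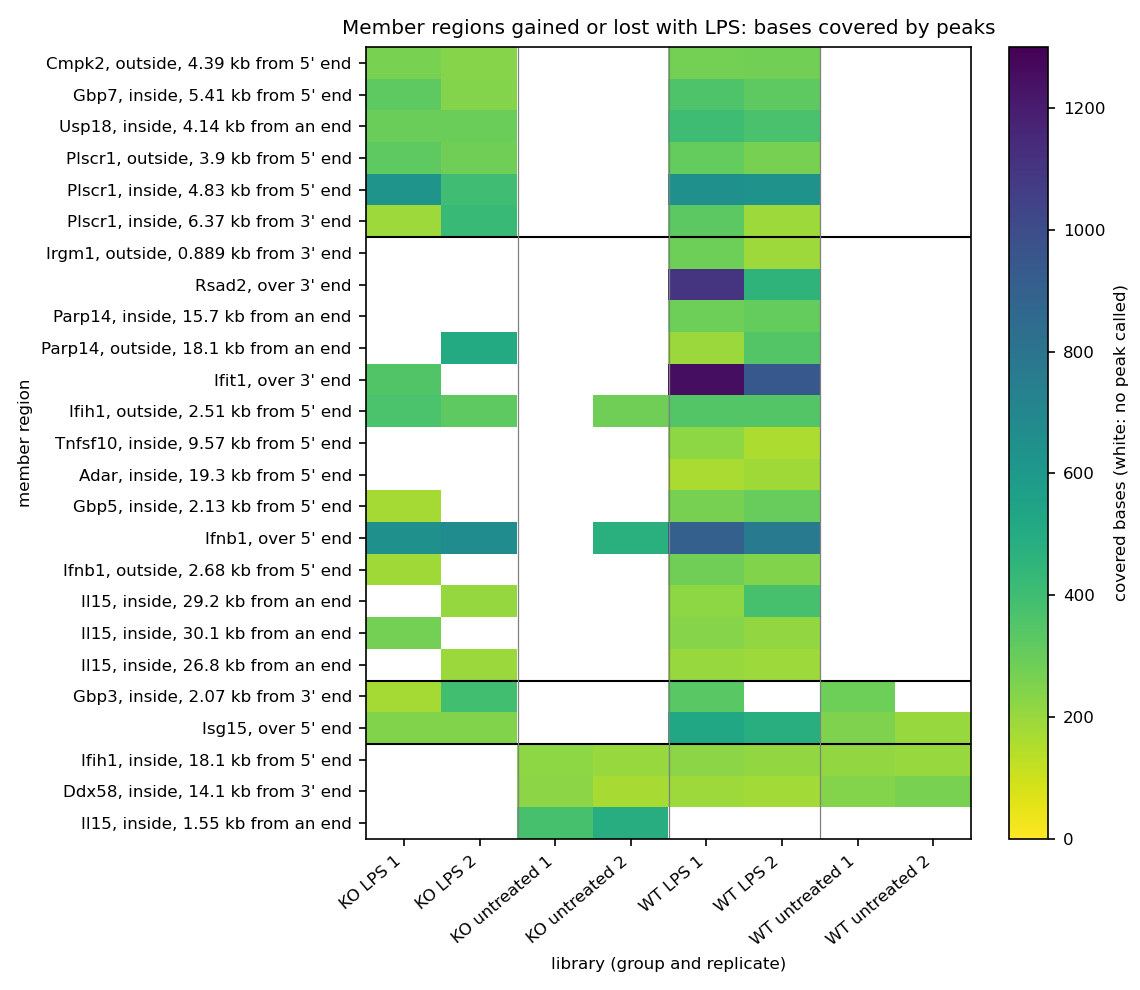
Covered bases (colour, white for no peak) in each library (x axis) at the 25 member regions gained or lost with LPS in at least 1 genotype (y axis). From the top, the blocks hold the 6 regions gained in both genotypes, 14 gained in WT only, 2 gained in KO only and 3 lost in KO.

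Among the secreted signals, LPS added a region over the start of Ifnb1, the gene of interferon beta (chr4:88522641-88523555). It had 645 and 666 bases in KO with LPS, 0 and 474 in untreated KO, 903 and 761 in WT with LPS and 0 and 0 in untreated WT. Both LPS groups were thus above both untreated groups in every library, and the single untreated library with a peak was KO library 2. A smaller region 2.68 kb before the Ifnb1 start had 183 and 0 bases in KO with LPS, 0 and 0 in untreated KO, 280 and 247 in WT with LPS and 0 and 0 in untreated WT. Il15, which encodes a cytokine that sustains NK cells and memory T cells, had 3 regions inside the gene that were gained in WT and called in 1 KO LPS library each. At the first, 29.2 kb from a gene end, the covered bases were 0, 206 (KO with LPS), 0, 0 (untreated KO), 222, 379 (WT with LPS) and 0, 0 (untreated WT). At 30.1 kb from an end they were 272, 0 (KO with LPS), 0, 0 (untreated KO), 236, 209 (WT with LPS) and 0, 0 (untreated WT), and at 26.8 kb from an end 0, 198 (KO with LPS), 0, 0 (untreated KO), 201, 188 (WT with LPS) and 0, 0 (untreated WT).

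A further Il15 region, inside the gene and 1.55 kb from an end (chr8:82401215-82401705), had 0 and 0 bases in KO with LPS, 380 and 491 in untreated KO, and none in any of the 4 WT libraries. It was the only member region lost in KO that untreated WT lacked. Over the end of Il15 itself, 982 to 1402 bases were covered in all 8 libraries. Tnfsf10, which encodes the death ligand TRAIL, gained in WT a region inside the gene, 9.57 kb from its 5′ end, with 220 and 158 bases in WT with LPS and no peak in the other 6 libraries. Its start carried a broad region with 763 and 595 bases in KO with LPS, 1157 and 2618 in untreated KO, 800 and 679 in WT with LPS and 634 and 1182 in untreated WT. The untreated KO library 2 was far above all others there, and the groups overlapped.

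Among the sensors, Ddx58 encodes RIG-I, which detects viral RNA. The region over its start (chr4:40238752-40239982) had 248 and 172 bases in KO with LPS, 0 and 167 in untreated KO, 918 and 971 in WT with LPS and 215 and 233 in untreated WT. Both WT LPS libraries were above the other 6, which lay at or below 248 bases. Because untreated KO library 1 had no peak, the region is outside the test of widths over all 8 libraries. In the alternative fit that takes regions called in at least 6 libraries and drops the missing one, the difference between LPS and untreated was 1.31 ± 0.18 on the log2 scale (SE; limma, adjusted p = 0.052). That difference was 0.429 ± 0.284 in KO, where 1 untreated library was left, and 2.195 ± 0.232 in WT. In the same fit KO minus WT with LPS was -2.15 ± 0.23 (adjusted p = 0.105), and the interaction was -1.77 ± 0.37. The library left out had no peak, so the KO difference and the interaction omit the lowest untreated KO value. None passed 0.05 after adjustment. A second Ddx58 region, inside the gene and 14.1 kb from its 3′ end, was lost in KO, with 0 and 0 bases in KO with LPS, 227 and 168 in untreated KO, 189 and 181 in WT with LPS and 240 and 259 in untreated WT.

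Ifih1 encodes MDA5, a sensor of long double-stranded RNA. A region 2.51 kb before its start was gained in WT, with 370 and 323 bases in KO with LPS, 0 and 284 in untreated KO, 349 and 347 in WT with LPS and 0 and 0 in untreated WT. Here the LPS libraries of both genotypes were all above the untreated ones, and untreated KO library 2 held the only untreated peak. Inside the gene, 18.1 kb from its 5′ end, a region was lost in KO, with 0 and 0 bases in KO with LPS, 223 and 199 in untreated KO, 225 and 212 in WT with LPS and 213 and 200 in untreated WT. The start of Ifih1 itself carried 421 to 486 bases in the 8 libraries. Dhx58 (LGP2, a regulator of both sensors) carried 249 to 439 bases at an end, Zbp1 (a sensor of left-handed nucleic acid) 813 to 1952, and Trim25 (a ubiquitin ligase that activates RIG-I) 359 to 745. None of these 3 genes had a gained or lost region.

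The proteins that bind or cut viral RNA were marked by the Ifit genes. Ifit1, Ifit2 and Ifit3 encode tetratricopeptide proteins, of which IFIT1 holds back RNA that lacks a self-type cap. The start of Ifit1 (chr19:34639998-34641229) was called in all libraries, with 719 and 664 bases in KO with LPS, 779 and 680 in untreated KO, 1070 and 950 in WT with LPS and 558 and 961 in untreated WT. The 3′ end of Ifit1 (chr19:34649914-34651400), which also lies in the body of the neighbouring Ifit1bl1, had 354 and 0 bases in KO with LPS, 0 and 0 in untreated KO, 1254 and 942 in WT with LPS and 0 and 0 in untreated WT. WT with LPS was above all other libraries there, and KO LPS library 1 held the only other peak. Inside Ifit2, 2.41 kb from the start (chr19:34552956-34554012), a region called in all libraries had 930 and 857 bases in KO with LPS, 282 and 639 in untreated KO, 1056 and 612 in WT with LPS and 253 and 196 in untreated WT. Its LPS minus untreated difference, 1.58 ± 0.30 on the log2 scale (SE, 95% interval 0.86 to 2.31), was the largest among the 72 members tested but missed the threshold (limma, adjusted p = 0.0712). The difference was 1.20 ± 0.43 in KO and 1.97 ± 0.43 in WT, and untreated KO library 2 overlapped WT LPS library 2.

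Adar encodes an enzyme that edits adenosines in double-stranded RNA. Over its annotated 5′ end (chr3:89714441-89715501) the covered bases were 0 and 297 bases in KO with LPS, 807 and 605 in untreated KO, 671 and 782 in WT with LPS and 541 and 798 in untreated WT. The KO LPS libraries were below the other 6. Untreated KO and both WT groups overlapped. With the missing library left out, KO minus WT with LPS was -1.22 ± 0.29 on the log2 scale (limma, adjusted p = 0.289). A second promoter window of Adar lay under a region inside the gene with 599 to 872 bases in all libraries. A region 19.3 kb inside Adar was gained in WT, with 164 and 187 bases in WT with LPS and no peak elsewhere. The starts or ends of Eif2ak2 (the kinase PKR, 601 to 743 bases), Ifit2 (610 to 806), Ifit3 (841 to 987), Oas2 (518 to 754) and Oasl1 (321 to 559) were called in all 8 libraries. Oas3 had 188 and 216 bases in KO with LPS, 0 and 169 in untreated KO, 241 and 164 in WT with LPS and 200 and 173 in untreated WT over its start. OAS proteins make the second messenger that activates RNase L. Oasl2 had 528 to 857 bases 0.298 kb inside its 5′ end, and Isg20, an exonuclease, 335 to 614 bases 0.128 kb inside its own.

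Plscr1, which encodes a phospholipid scramblase with antiviral activity, had the most regions gained in both genotypes. The region 4.83 kb inside the gene (chr9:92255023-92255683) had 629 and 400 bases in KO with LPS, 0 and 0 in untreated KO, 645 and 639 in WT with LPS and 0 and 0 in untreated WT. A region 3.9 kb before the start had 323 and 284 bases in KO with LPS, 0 and 0 in untreated KO, 305 and 268 in WT with LPS and 0 and 0 in untreated WT, and another, 6.37 kb from the 3′ end, 190 and 417 bases in KO with LPS, 0 and 0 in untreated KO, 326 and 190 in WT with LPS and 0 and 0 in untreated WT. In all 3 the LPS libraries held a peak and the untreated ones did not, while the start of Plscr1 carried 1199 to 1368 bases in the 8 libraries. Cmpk2, a mitochondrial nucleotide kinase next to Rsad2, gained a region 4.39 kb before its start (chr12:26464451-26464728), with 261 and 234 bases in KO with LPS, 0 and 0 in untreated KO, 272 and 278 in WT with LPS and 0 and 0 in untreated WT. Its start carried 730 to 904 bases.

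Rsad2 encodes viperin, an enzyme that makes a chain-terminating nucleotide. Over its 3′ end (chr12:26441764-26442861) peaks covered 1098 and 452 bases in WT with LPS, with none in the 4 KO libraries or in untreated WT. The start of Rsad2 was called in all libraries with 524 to 629 bases. Bst2 (tetherin, which holds budding virions at the cell surface) had 1 region, over its start, with 479 to 642 bases.

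**Figure D4:**
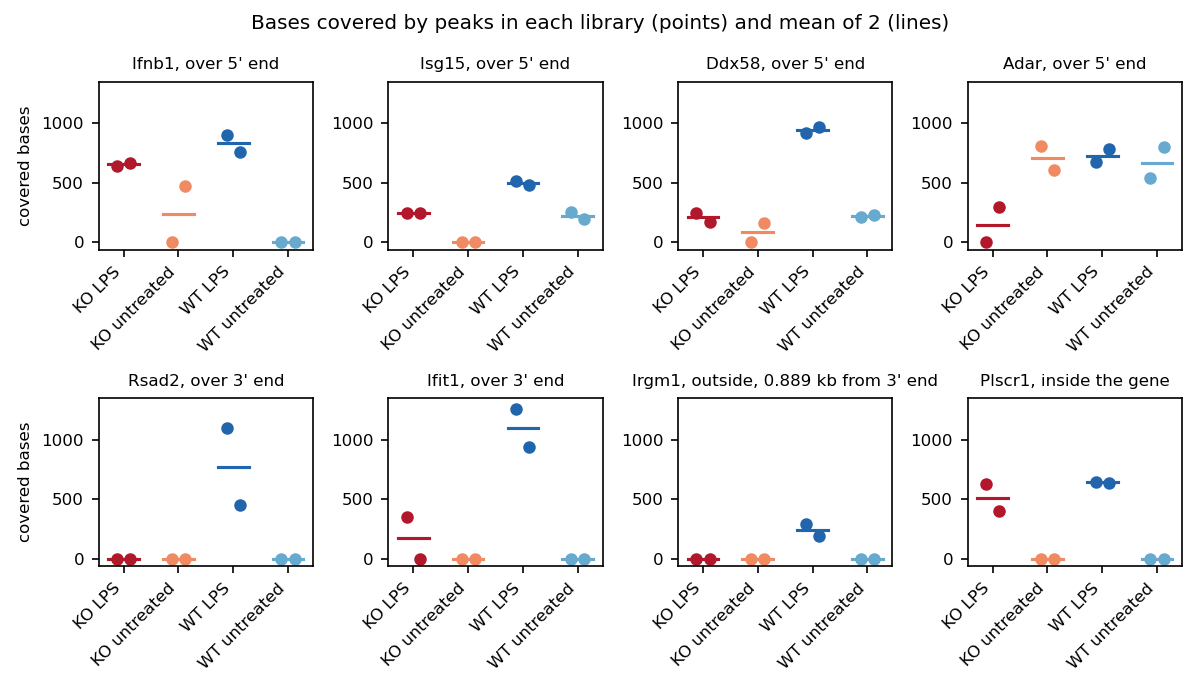
Covered bases (y axis) in each library (points, with the mean of the 2 libraries as a line) for the 4 groups at 8 member regions. At Ifnb1 and Plscr1 both LPS groups are high, at Ddx58, Rsad2, Ifit1 and Irgm1 the WT LPS libraries stand above the rest, and at Adar the KO LPS libraries are low.

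The interferon-inducible GTPases attack the vacuoles of intracellular pathogens. Gbp7 gained a region inside the gene in both genotypes (chr3:142535742-142536098), with 323 and 242 bases in KO with LPS, 0 and 0 in untreated KO, 357 and 321 in WT with LPS and 0 and 0 in untreated WT. Gbp5 gained in WT a region 2.13 kb inside the gene, with 174 and 0 bases in KO with LPS, 0 and 0 in untreated KO, 269 and 301 in WT with LPS and 0 and 0 in untreated WT. Gbp3 gained in KO a region 2.07 kb from its 3′ end, with 174 and 392 bases in KO with LPS, 0 and 0 in untreated KO, 333 and 0 in WT with LPS and 289 and 0 in untreated WT. In WT that region had a peak in 1 library of each treatment. The region 0.889 kb past the 3′ end of Irgm1 (chr11:48863902-48864356) had 289 and 192 bases in WT with LPS and no peak in the other 6 libraries. The starts of Gbp2 (1615 to 1749 bases), Gbp3 (1200 to 1304), Gbp5 (774 to 1137), Gbp7 (653 to 1102), Irgm1 (1071 to 1763) and Igtp (410 to 642) were called in all 8 libraries.

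Isg15 encodes a ubiquitin-like protein that is attached to other proteins, and its only region lay over its start (chr4:156200648-156201166). It had 246 and 244 bases in KO with LPS, 0 and 0 in untreated KO, 519 and 478 in WT with LPS and 251 and 199 in untreated WT. It was therefore gained in KO, while both WT groups held it, WT with LPS above untreated WT. In each treatment both KO libraries were below both WT libraries. Usp18, the protease that removes ISG15, gained a region 4.14 kb inside the gene in both genotypes (chr6:121250042-121250493), with 294 and 290 bases in KO with LPS, 0 and 0 in untreated KO, 403 and 373 in WT with LPS and 0 and 0 in untreated WT. The end of Usp18 nearest to it carried 585 to 947 bases in the 8 libraries.

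Parp14, an ADP-ribosyltransferase, gained in WT a region inside the gene, 15.7 kb from an end, with 289 and 307 bases in WT with LPS and no peak elsewhere. A second region, 18.1 kb outside the gene, had 0 and 506 bases in KO with LPS, 0 and 0 in untreated KO, 193 and 349 in WT with LPS and 0 and 0 in untreated WT. A region over an end of Parp14 had 252 and 0 bases in KO with LPS, 457 and 516 in untreated KO, 281 and 405 in WT with LPS and 320 and 335 in untreated WT. Xaf1, a pro-apoptotic factor, Ifi35 and Ifi44 had no gained or lost region, and their starts carried 550 to 840, 355 to 644 and 686 to 1686 bases.

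Several 3′ ends of members were called in WT with LPS alone. Of the 10 member regions within 1 kb of a 3′ end, 5 were called in WT LPS libraries only, at Irgm1, Rsad2, Ifit2, Ifit3 and Ifi44, against 6.89% of the 1683 regions near a 3′ end in the whole series. None of the 10 was called only in KO with LPS (against 4.04%) or only in untreated KO (against 5.94%), and 1, at Adar, was called only in untreated WT (against 8.5%). By the rule for gained regions, 3 of the 10 were gained in WT (Irgm1, Rsad2 and Ifit1, against 3.68%) and none in KO (against 2.32%). The peaks at Ifit2 (826 bases), Ifit3 (202) and Ifi44 (212) were in WT LPS library 1 alone, so without that library 2 of the 10 remained, at Irgm1 and Rsad2, against 3.21% of all such regions. This comparison was chosen after the values were seen. Near 5′ ends, 25 of 32 member regions were called in all 8 libraries, against 78.4% of all, a share close to that of the members, and 1 was called in WT LPS libraries only, against 1.92%.

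Between the genotypes, few member regions were called on a single side. Within LPS, 1 was called in both KO libraries and neither WT library (0.61%, against 2.03% of all regions), and 9 were called in both WT libraries and neither KO library (5.49%, against 3.17%). The KO region lay 20.6 kb before Gbp5, with 186 and 480 bases in KO with LPS, 464 and 204 in untreated KO, 0 and 0 in WT with LPS and 0 and 261 in untreated WT. The 9 WT regions included the Irgm1, Rsad2, Parp14, Tnfsf10 and Adar regions above that no KO library called, and the Ddx58 and Ifih1 regions lost in KO. The other 2 lay inside Ifih1, 0.429 kb from its 5′ end, with 0 and 0 bases in KO with LPS, 358 and 0 in untreated KO, 240 and 188 in WT with LPS and 281 and 0 in untreated WT, and inside Tnfsf10, 0.809 kb from its 3′ end, with 0 and 0 bases in KO with LPS, 177 and 0 in untreated KO, 160 and 301 in WT with LPS and 0 and 171 in untreated WT. The WT count depended on WT LPS library 1: without it the rule gave 12 member regions (7.32%), near the 7.29% of all regions, and without WT LPS library 2 it gave 23 (14.0%, against 8.36%). In untreated cells, 1 region was called in both KO libraries and neither WT library (Il15, 0.61%, against 1.6%) and 1 the other way round (the Isg15 start, 0.61%, against 2.23%). No member region was called in all 4 KO libraries and no WT library (against 0.147%), or in all 4 WT libraries and no KO library (against 0.231%).

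Among the 92 member regions not called in every library, 10 had more covered bases in each of the 4 LPS libraries than in any untreated library (10.9%, against 3.29% of all 51251 such regions), and 2 had fewer (2.17%, against 5.36%). The 10 lay at Plscr1 (4 regions), Cmpk2, Gbp5, Gbp7, Ifih1, Ifnb1 and Usp18, and the 2 lay near Zbp1 and Ifnb1. Regions separated in this way always have the smallest two-sided exact permutation p that 4 against 4 libraries allow (0.029). That p therefore restates how they were picked and adds no support. None passed adjustment over the 51251 regions called in 1 to 7 libraries (smallest adjusted p = 0.33). Between KO and WT, none of the 92 member regions reached the smallest p, against 2.1% of all regions tested. With only 92 regions, none cannot be told from that share. Among the 72 member regions called in all 8 libraries, counted in bases without centring, 2 were above in every LPS library, at Gbp7 and Parp14 (2.78%, against 2.6% of all such regions). Another 10 were below in every LPS library (13.9%, against 10.8%), at Adar, Gbp2 (2 regions), Gbp5, Ifit2, Il15, Oasl1, Oasl2 and Plscr1 (2 regions). The share above was thus near that of all regions.

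Peak width passed the test at none of the 72 member regions called everywhere, in any contrast. The log2 covered bases of the 36009 regions called in all 8 libraries were fitted with limma after each library was centred on its median, with Benjamini-Hochberg adjustment over all of them. For LPS minus untreated, 0 member regions were wider and 0 narrower at an adjusted p under 0.05, against 0.664% and 0.467% of all regions. At an unadjusted p under 0.05, 10 were wider (13.9%, against 9.76% of all regions) and 3 narrower (4.17%, against 8.28%). Within KO, 4 were wider (5.56%, against 5.83%) and 7 narrower (9.72%, against 5.29%). Within WT, 11 were wider (15.3%, against 6.79%) and 3 narrower (4.17%, against 6.85%). The larger share of wider members was thus seen in WT and not in KO. The median difference of the members in log2 covered bases was 0.039 in KO and 0.114 in WT, against 0.015 and 0.02 over all regions. Without centring, the median over both genotypes was -0.067 for the members and -0.113 for all regions, so the members kept their place relative to all regions but not their sign. For KO minus WT, 0 member regions were wider and 0 narrower, against 0.00278% and 0.00278% of all regions, with 0 wider (against 5.28%) and 9 narrower (12.5%, against 4.77%) at an unadjusted p under 0.05. For the interaction, 0 and 0 passed, against 0.0% and 0.0% of all regions, with 3 positive (4.17%, against 3.37%) and 1 negative (1.39%, against 3.01%) at an unadjusted p under 0.05. The smallest adjusted p of a member was 0.069 for LPS, 0.22 for KO minus WT and 0.567 for the interaction.

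Among the members with an unadjusted p under 0.05, Gbp7 had a region 0.051 kb past its 3′ end with 341 and 374 bases in KO with LPS, 244 and 252 in untreated KO, 352 and 349 in WT with LPS and 214 and 294 in untreated WT. Its LPS minus untreated difference was 0.63 ± 0.14 on the log2 scale (limma, adjusted p = 0.0915), and every LPS library was above every untreated one. A Parp14 region 1.62 kb inside an end had a difference of 0.35 ± 0.07 (adjusted p = 0.069), with 807 and 732 bases in KO with LPS, 668 and 620 in untreated KO, 883 and 870 in WT with LPS and 779 and 751 in untreated WT. In contrast, the region 0.514 kb before the Oasl1 start had 288 and 311 bases in KO with LPS, 694 and 738 in untreated KO, 677 and 320 in WT with LPS and 764 and 691 in untreated WT, a difference of -0.83 ± 0.23 (adjusted p = 0.153). Counted in bases without centring, every LPS library was below every untreated one, WT LPS library 1 by a small margin. The library medians also differed, at 537 bases in WT LPS library 1 and 590 in untreated WT library 2. The order did not hold for WT LPS library 1 after centring. Between genotypes, the lowest unadjusted p of a member belonged to the Oasl1 start, with 337 and 335 bases in KO with LPS, 322 and 321 in untreated KO, 559 and 493 in WT with LPS and 453 and 447 in untreated WT. KO minus WT was -0.53 ± 0.11 there (95% interval -0.78 to -0.27, adjusted p = 0.22), and all 4 KO libraries were below all 4 WT libraries.

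**Figure D5:**
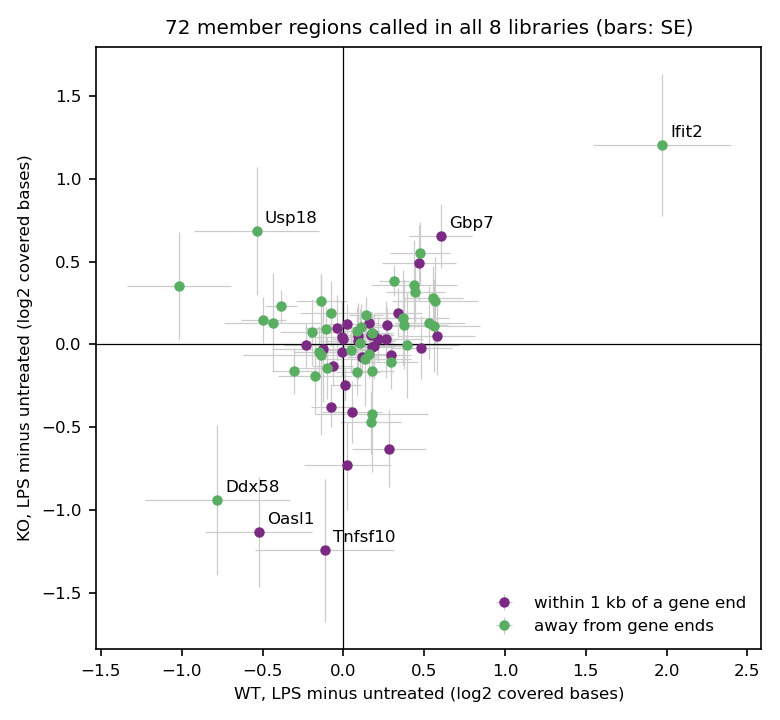
LPS minus untreated difference in log2 covered bases in KO (y axis) and in WT (x axis) for the 72 member regions called in all 8 libraries, with bars of 1 SE, near gene ends (purple) and away from them (green). Most regions lie close to 0 in both genotypes, and the Ifit2 region is far out in both, at 1.20 in KO and 1.97 in WT.

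3 lists of other genes of the pathway were counted in the same way. The 12 genes of interferon receptors and their signal transduction had 96 regions, of which 2 were gained (2.08%) and 4 lost (4.17%) in KO, and 3 were gained (3.12%) and 2 lost (2.08%) in WT. Over all regions these shares were 2.56% and 4.07% in KO, and 3.96% and 5.06% in WT, so both KO shares were near those of all regions. Regions 7.45 kb from Socs3, the feedback inhibitor of JAK kinases, and 28.3 kb from Ifngr1 were gained in both genotypes (2.08%, against 1.1% of all regions). A region inside Jak1 was lost in both (1.04%, against 0.928%). Of the 14 genes that carry the signal from TLR4 and nucleic acid sensors to interferon, 12 were protein-coding in the table and had 87 regions, with 5 gained (5.75%) and 2 lost (2.3%) in KO, and 5 gained (5.75%) and 4 lost (4.6%) in WT. The 3 regions gained in both genotypes (3.45%, against 1.1% of all regions) lay at Tlr4, Tbk1 (the kinase that activates IRF3) and Irf3. The Tbk1 region had 314 and 255 bases in KO with LPS, 595 and 522 in WT with LPS, and no peak without LPS. A region 16.5 kb from Irf1 had 552 and 511 bases in KO with LPS, 601 and 671 in untreated KO, no peak in WT with LPS, and 575 and 570 in untreated WT. Of 32 further interferon-induced genes, 31 had a region, 132 in all, with 4 gained (3.03%) and 7 lost (5.3%) in KO, and 9 gained (6.82%) and 7 lost (5.3%) in WT. In both genotypes 1 was gained, at Ccl5 (0.758%, against 1.1% of all regions), and 2 were lost, at B2m and Sp100 (1.52%, against 0.928%). Counts this small in both genotypes do not set the lists apart from all regions. The region gained in WT at Ifit1bl1 is the one at the 3′ end of the member Ifit1, so it was counted for both lists.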

How the data were processed

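ATAC-seq peak lists of 8 libraries were used. The build was GRCm38 (mm10) and the named tools were MACS2 2.1.1, Bowtie2 2.3.0, bcl2fastq 2.17.1.14 and Picard, per the submitters' processing notes. How duplicates were handled, whether cut sites were shifted and which calling threshold was used were not given in the sources used here. Each of these can add or remove weak peaks. The deposited files give each peak's chromosome, start and end, 1 list per library, and no score, signal or count. Starts are printed counting from 1.

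Peaks were merged across the lists (overlap of at least 1 base) and assigned to the nearest protein-coding gene bodies within 100 kb in the RefSeq gene table (GRCm38.p6). All bodies at the smallest distance counted as nearest, which concerned 3 member regions. The strand of a gene came from the RefSeq promoter table, which matched 28 of the 36 members. A library called a region when at least 1 base of a peak overlapped it.

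Covered bases were compared with limma 3.58.1 in R 4.3.3 (log2 covered bases, each library centred on its median, 4 group means, trend, Benjamini-Hochberg adjustment, threshold 0.05) for the 36009 regions called in all 8 libraries. Other regions were compared by an exact permutation test, two-sided, with 70 arrangements. The fit was also run on simulated data with independent noise and a single, large change with LPS. Smaller changes were not simulated and the outcome is not given here, so it does not show what the fit would miss. Precision is limited by 2 libraries per group and an unknown depth, so no counting interval can be given. The labels give no batch or date.

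Values are given in full for member regions gained, lost or called in a single genotype, and for regions over a gene end as values or ranges. The members, the gene lists and the tests were chosen with earlier results of these data known. Alternatives covered the overlap that makes a call, the distance to a gene, the gene types, list length, the gene-end distance, centring, trend, the block, a width filter, the widest peak, regions called in at least 6 libraries, and leaving out each library. Leaving out each WT LPS library for the regions near 3′ ends was added after seeing the data.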

Additional observations from a re-analysis of the deposited data

Results flagged for a closer look

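In bases without centring, the LPS libraries of KO and of WT moved in opposite directions at 2 member regions called in all 8 libraries. Neither LPS group overlapped its own untreated libraries there. The share of all regions with this pattern was not counted, so the 2 cannot be set against it. The difference in covered bases was not tested as such. Over the start of Xaf1 (chr11:72301173-72302050), the mean change with LPS was -79.5 bases in KO and 92.0 bases in WT, a difference of -171.5 bases. On the log2 scale after centring, the change was -0.062 ± 0.124 in KO and 0.295 ± 0.124 in WT (SE). The KO change was thus smaller than its SE. The limma interaction was -0.36 ± 0.17 (SE, adjusted p = 0.827). At a region 14.4 kb before Ifnb1 (chr4:88537158-88538032), the change was 48.0 bases in KO and -254.5 bases in WT, a difference of 302.5 bases. Its interaction was 0.62 ± 0.14 (adjusted p = 0.567), and its unadjusted p of 0.00343 was the lowest among the members for that contrast.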

How the results depend on the processing

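The number of member regions gained or lost moved by over 1.5 times, or away from 0, under several settings, and the cause was not tested. With at least 50% of a region covered for a call, 11 were lost in KO, 5 in WT and 2 in both genotypes, 3 were called in KO only and 2 in WT only in untreated cells, 0 in KO only with LPS, and 4 of those not called in every library had fewer covered bases in every LPS library. With lists cut to the widest 54027 peaks, 14 were gained and 1 lost in KO, and 2 were called in KO only and 4 in WT only in untreated cells. With the widest 27013 peaks, 3 were gained in KO, 11 gained and 1 lost in WT, 3 gained in both genotypes, 0 called in KO only and 3 in WT only in untreated cells, and 3 of those not called in every library had more covered bases in every LPS library. Under these stricter lists fewer member regions exist (88). Under these settings the shares of all regions, given above, were counted only for regions gained or lost within a genotype. The other counts therefore do not set the members apart. Leaving out each library in turn gave 8 to 16 gained and 6 to 10 lost in KO, 24 to 36 gained and 2 to 6 lost in WT, and 6 to 10 gained in both genotypes. The lost shares in KO were 3.66% to 6.1%, against 7.08% to 10.6% of all regions, so the members stayed below. In WT they were 1.22% to 3.66%, against 7.65% to 11.4%. The gained shares are given above. Leaving out a library also gave 3 to 7 called in KO only and 1 to 6 in WT only in untreated cells. With LPS it gave 2 to 7 in KO only and 12 to 23 in WT only, and 0 to 1 were called in KO only in both treatments. In untreated cells the KO-only shares were 1.83% to 4.27% (against 3.56% to 6.46% of all) and the WT-only shares 0.61% to 3.66% (against 4.18% to 7.32%). With LPS they were 1.22% to 4.27% (against 3.51% to 6.55%) for KO only and 7.32% to 14.0% (against 5.55% to 8.36%) for WT only. Among regions not called in every remaining library, 8 to 15 were above and 2 to 4 below in every LPS library. For these, and for the counts in both genotypes or both treatments, no share of all regions is given here. With 1 library of a group left out the rule asks for fewer peaks, so more regions can pass. Near 3′ ends, 2 to 5 were called in WT LPS libraries only. A distance of 25 kb, genes of any type and a gene end of 2 kb moved no count by over 1.5 times. No alternative called a member region in the width fit, and the smallest adjusted p of a member for LPS lay between 0.052 and 0.152 over them. Over all regions, the 239 wider and 168 narrower with LPS became 160 and 451 without centring, and 0 and 0 whichever single library was left out. Replicate differences of libraries that share a code in the labels were weakly correlated (r = 0.0544 in KO and 0.0537 in WT). These were the highest values, and between groups that share no code r lay between -0.00107 and 0.0415. Whether the codes pair the libraries was not tested. A fit with the replicate block called 0 member regions, as did the fit without it. With the block, 0 regions were wider and 0 narrower with LPS over all regions. Depth is unknown, so weak regions may be missed in some lists.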

Other observations

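Mx1 and Mx2 enter when genes of every type in the table are used. Mx1 then had a region 0.266 kb outside an end of the gene (chr16:97446220-97446769) with no peak in the 4 KO libraries, 384 and 428 bases in WT with LPS, and no peak in untreated WT. Of the other 4 Mx1 regions, 3 were called in a single WT LPS library each, and the fourth, over an end of the gene, had 762 to 833 bases in all 8 libraries. Mx2 had 1491 to 1616 bases over an end in all 8 libraries and no gained region. The strand of both genes is not in the tables used here. Outside the members, a region 11.4 kb from Ifitm3, which encodes a protein that blocks viral entry, had no peak in the 4 KO libraries, 306 and 297 bases in WT with LPS, and 218 and 182 in untreated WT. It was the only region of the 3 further gene lists called in all 4 WT libraries and no KO library. That is 1 of the 132 regions of its list (0.758%) and none of the 96 and 87 of the others, against 0.231% of all regions. A single region cannot be told from that share.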
